A study of Mus musculus with 9 samples.

Results

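The potassium channel family was followed as the genes whose mouse names begin with Kcn and a further letter, which cover pore-forming subunits, their auxiliary subunits and 1 long noncoding RNA. Of the 25239 gene names in each table, 98 matched this pattern. The antisense genes *Kcnd3os*, *Kcnmb4os1* and *Kcnmb4os2* and the glial inward rectifier *Kcnj10* were left out, which gave 94 members. The members were picked by a rule on names and not by any measured value, although earlier results of these data were known. Values are in TPM, the share of a library's transcripts after correction for their length, so that levels can be compared between genes.

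The libraries came from whole retinas of C57BL/6J mice at P42, with both retinas of a pair pooled in 1 library. In the knock-in allele the P2A-CreERT2 sequence follows the last codon of *Rbpms* in frame, so that the *Rbpms* locus drives CreERT2, a recombinase that tamoxifen activates, in retinal ganglion cells. Of the 9 libraries 3 were +/+, 3 were Rbpms-CreERT2/+ (heterozygous) and 3 were Rbpms-CreERT2/CreERT2 (homozygous), and the controls were littermates. The labels number the libraries without naming an animal, so that the p-values measure the spread between these libraries. The design text of the series calls the knock-in mice knockouts, while no label of these libraries names tamoxifen or a floxed gene. Ganglion cells are a small share of the cells of a whole retina, and in such libraries fewer cells of a type and less RNA per cell cannot be told apart. The study also counted ganglion cells in whole-mount retinas by RBPMS and POU4F1 staining. It found no significant difference in their number between the genotypes.

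*Rbpms* itself was at 38.4 to 43.4 TPM in the +/+ retinas, 31.3 to 33.1 TPM in the heterozygous and 19.1 to 24.2 TPM in the homozygous retinas. The markers of rods, cones, bipolar, amacrine and horizontal cells and Müller glia were all present at levels that could be tested. The aligned bases of a library were 4.05 to 4.65 gigabases. Homozygous replicate 1 stood apart, since the ribosomal gene *Rn45s* took 9.21% of its TPM against 0.0827% to 0.336% in the other 8 libraries, and its summed TPM of the 94 members was 2778 against 3277 to 3468 elsewhere. In this library 35 of the 64 members tested had their lowest value (54.7%), as did 38.6% of all genes tested. Homozygous replicate 2 had the highest sum of 6 lens genes (*Cryaa*, *Cryba1*, *Crygs*, *Mip*, *Lim2* and *Bfsp2*), 902 TPM against 10.7 to 201 TPM in the other 8 libraries. *Xist* was at 2.08 to 3.16 TPM in heterozygous replicate 3 and homozygous replicates 1 and 3 and high in the other 6 libraries, so that sex and genotype are partly confounded. The main results that involve the homozygous retinas are therefore also given without homozygous replicate 1, which leaves 2 homozygous libraries.

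Potassium channels let potassium ions leave or enter a cell along their electrochemical gradient, and in neurons they set the resting potential, end the action potential and limit how fast a cell can fire. In photoreceptors a voltage-gated potassium current of the inner segment balances the dark current and shapes the light response, and in glia inward rectifiers carry potassium away from active neurons. Pore-forming subunits assemble around a narrow selectivity filter whose signature is a run of amino acids with a glycine on either side of a tyrosine or a related residue, while auxiliary subunits lack a pore and alter the gating or the transport of the channel.

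The coding sequences were searched for the signature of the filter. The longest coding transcript of each member in GENCODE M21, an annotation of GRCm38 (the assembly of mm10), was searched for 5 codons in frame, namely ACN or a codon TCN or AGT or the codon AGC first, any codon after it, GGN next, then TAT or the codon TAC or TTN or a codon CTN, and GGN at the end. All 76 pore-forming members held a match and none of the 17 auxiliary members did, while *Kcnq1ot1* has no coding transcript. All 14 two-pore subunits, which carry a pair of pore loops in 1 chain, held 2 matches. *Kcna6* and *Kcnh2* also held 2 matches, although they are not two-pore subunits. Their first match has TTG or CTG before the last GGN and lies ahead of the other, at codons 240 to 244 and 601 to 605. A match by itself therefore does not mark a pore filter. Of the 21562 coding genes of the annotation, 5.42% held a match, so the letters alone do not define a channel. The 6 stretches below come from abundant members and from members with small p-values described further on, of several classes. Each has 30 bases of 1 exon, 5′ to 3′ on the coding strand, with the matched codons in capitals.
*Kcnj14*: cagacgTCCATAGGCTATGGTgtgcgcagc
*Kcnv2*: atctccACCGTGGGCTATGGAgacatgtac
*Kcng4*: atgacgACCGTGGGCTATGGGgacatggtc
*Kcna5*: atgaccACTGTAGGCTACGGGgacatgagg
*Kcnh6*: ctcactAGTGTGGGCTTCGGCaatgtgtca
*Kcnk1*: ctgagcACCATCGGCCTGGGGgactatgtt

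They lie at chr7:45819624-45819653 (minus strand, exon 2) in *Kcnj14*, chr19:27333648-27333677 (plus strand, exon 2) in *Kcnv2*, and chr8:119625901-119625930 (minus strand, exon 3) in *Kcng4*. The others lie at chr6:126533736-126533765 (minus strand, exon 1) in *Kcna5*, chr11:106019070-106019099 (plus strand, exon 6) in *Kcnh6*, and chr8:126025323-126025352 (plus strand, exon 2) for the second match of *Kcnk1*. The codon before the last GGN is TAT or TAC in *Kcnj14*, *Kcnv2*, *Kcng4* and *Kcna5*, TTC in *Kcnh6* and CTG in the second match of *Kcnk1*. *Kcnv2* and *Kcng4* encode silent subunits that form no channel of their own, and their filters match the same codon pattern as those of the other pore-forming members. The 76 members with a match had a median of 6.04 TPM, and 51 of them reached a mean of 1 TPM. The 17 auxiliary members had a median of 20.0 TPM, and 12 of them reached that mean.

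The levels of the 94 members spanned several orders of magnitude. Those with a mean of at least 1 TPM over all 9 libraries were tested, which kept 64 of 94 members (68.1%) and 15198 of all 25239 names (60.2%). The 30 members below this limit had means of up to 0.920 TPM (*Kcnn3*), the lowest one tested was *Kcns3* at 1.14 TPM, and *Kcnk16* was listed at 0 in all 9 libraries. At the other end, 40 members reached 10 TPM and 7 reached 100 TPM. The 3 highest members, among them *Kcnj14* and *Kcnv2*, held 43.4% of the summed TPM of the family and the highest 15 held 77.4%.

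**Figure D1:**
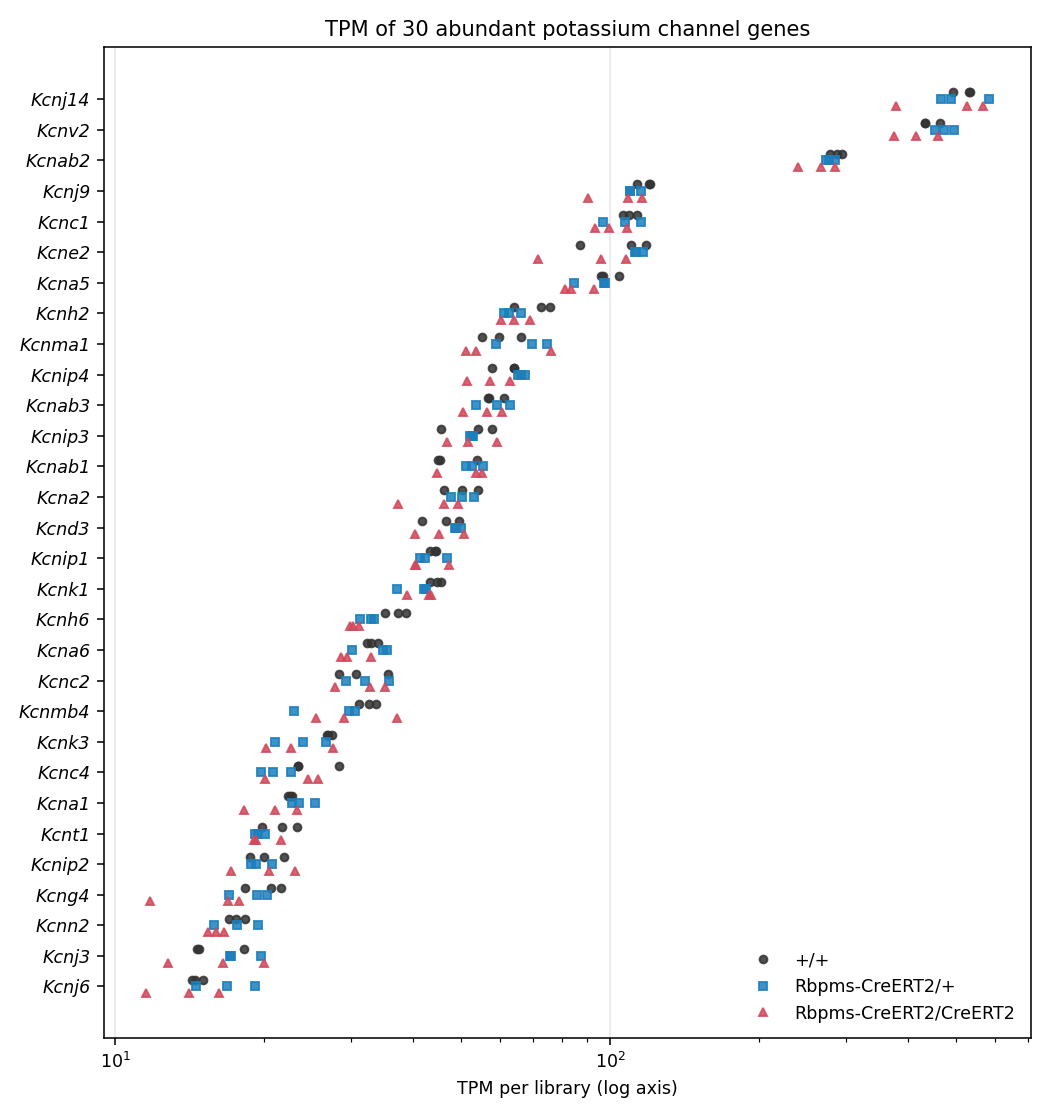
TPM in each of the 9 libraries of the 30 members with the highest mean among those named in the text, on a log axis, 1 row per gene and 1 symbol per genotype. *Kcnj14* and *Kcnv2* lie between 374 and 583 TPM in every library, apart from *Kcnab2* at 240.1 to 294 TPM and from all others shown, which stay below 121 TPM.

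*Kcnj14* and *Kcnv2* were among the first 3 in each of the 9 libraries and *Kcnab2* came next. In the +/+ retinas, the ranges of *Kcnj14* and *Kcnv2* did not overlap, and *Kcnab2* stood below *Kcnv2* and above *Kcnj9* with no overlap. Further down, neighbours in the order often could not be separated. Of the 25 neighbouring pairs among the 26 highest members in +/+ retinas, 17 had overlapping ranges.

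The subunits of the Kv1 to Kv4 classes, which form voltage-gated channels of their own, had the largest summed level of any class. Their 17 members, 15 of them tested, summed to 1016 TPM (mean of 9 libraries) or 30.7% of the family. *Kcnb2*, a Kv2 delayed rectifier, was low among them, at 8.77, 7.53 and 8.14 TPM in +/+ and 10.1, 9.52 and 10.5 TPM in heterozygous retinas, which did not overlap, and 7.58, 8.33 and 10.8 TPM in homozygous retinas.

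The Kv3 class, fast delayed rectifiers of cells that fire at high rates, was detected with all 4 members. *Kcnc1* was at 109, 106 and 113 TPM in the +/+ retinas, 96.8, 107 and 115 TPM in the heterozygous and 93.2, 99.5 and 108 TPM in the homozygous retinas. *Kcnc2* had means of 31.5 ± 3.68, 32.3 ± 3.25 and 31.8 ± 3.71 TPM (SD, n = 3 per genotype, in the same order) and *Kcnc4* of 25.03 ± 2.85, 21.1 ± 1.45 and 23.4 ± 2.96 TPM. Apart from *Kcnc4*, which was lower in all heterozygous than in all +/+ retinas, these genes overlapped between genotypes.

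Among the Kv1 genes *Kcna5* was highest, at 96.8, 96.0 and 104 TPM in the +/+ retinas, 84.7, 97.2 and 97.6 TPM in the heterozygous and 80.9, 83.5 and 92.7 TPM in the homozygous retinas. The homozygous values lay below all +/+ values. It is followed on chromosome 6 by *Kcna1* (mean 22.4 TPM) and *Kcna6* (32.3 TPM), all 3 within chr6:126532551-126740674 on the minus strand. A second cluster at chr3:107036162-107458898 holds *Kcna3* (10.7 TPM), *Kcna2* (48.3 TPM), *Kcna10* (0.0920 TPM) and *Kcnc4* (23.2 TPM), so that neighbours in a cluster differed widely in level. Of the Kv4 genes, which carry the A-type current, *Kcnd3* averaged 46.9 TPM, *Kcnd1* 10.8 TPM and *Kcnd2* 9.91 TPM.

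The silent subunits form channels only with Kv2 subunits, and 6 of their 10 members were tested. Most of their sum of 475 TPM came from *Kcnv2* (chr19:27322619-27337179, plus strand), whose protein Kv8.2 joins Kv2 subunits in photoreceptors and whose loss in humans causes a cone dystrophy with supernormal rod responses. *Kcnv2* measured 463, 433 and 432 TPM in the +/+ retinas, 454, 494 and 473 TPM in the heterozygous and 374, 415 and 459 TPM in the homozygous retinas. The genotypes overlapped, with homozygous replicate 1 lowest. *Kcng4*, a gene used to mark alpha ganglion cells, measured 20.7, 21.7 and 18.3 TPM in the +/+ retinas, 19.3, 20.3 and 17.0 TPM in the heterozygous and 11.8, 17.8 and 16.9 TPM in the homozygous retinas. All 3 homozygous values of *Kcng4* were below all +/+ values, with homozygous replicate 1 lowest. *Kcns2* averaged 5 TPM and *Kcnf1* 2.89 TPM.

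Kv7 subunits include those of the M-current, which opens near the resting potential and restrains repetitive firing, and 3 of the 5 members were tested. *Kcnq3* averaged 6.40 TPM. *Kcnq1* averaged 0.260 TPM, below the limit for testing. The noncoding *Kcnq1ot1* is read from the opposite strand within *Kcnq1* and is known as an imprinted regulator of its region. It measured 3.41, 2.50 and 3.05 TPM in the +/+ retinas, 3.94, 4.15 and 4.26 TPM in the heterozygous and 4.46, 3.36 and 3.81 TPM in the homozygous retinas, and the heterozygous values were all above the +/+ values. Since the strand setting of the counting is not known, reads of *Kcnq1* and *Kcnq1ot1* cannot be told apart with certainty and both values are uncertain.

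Of the 8 ether-a-go-go members, voltage-gated channels related to the cardiac hERG channel, 6 were tested, and they summed to 131 TPM. *Kcnh2*, the hERG gene itself, had means of 70.6 ± 6.02, 63.2 ± 2.58 and 64.3 ± 4.30 TPM (SD, n = 3) in +/+, heterozygous and homozygous retinas. *Kcnh6* (chr11:106008148-106035594, plus strand), which encodes the related Erg2 channel, measured 38.6, 37.3 and 35.01 TPM in the +/+ retinas, 32.8, 31.2 and 33.3 TPM in the heterozygous and 30.2, 31.0 and 29.8 TPM in the homozygous retinas. It was the 1 member of the 64 whose genotypes were separated in the order +/+, heterozygous, homozygous with no overlap, a pattern that 26 of the 15198 genes tested showed (0.171%). Its spread was also the smallest of the 40 members at 10 TPM or more, with a coefficient of variation (CV) within genotypes of 3.87%.

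The inward rectifiers pass potassium more readily into than out of the cell, and they were led by *Kcnj14* (chr7:45816467-45824747, minus strand), the gene of Kir2.4. *Kcnj14* measured 533, 532 and 492 TPM in the +/+ retinas, 583, 488 and 467 TPM in the heterozygous and 377, 566 and 525 TPM in the homozygous retinas. The 3 genotypes overlapped, and both extremes came from the knock-in retinas. The 14 members, 10 of them tested, summed to 694 TPM or 20.97% of the family.

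The G-protein-gated inward rectifiers open downstream of inhibitory receptors. *Kcnj9* was the highest of them at 120.1, 119.6 and 113 TPM in the +/+ retinas, 109.9, 109.7 and 116 TPM in the heterozygous and 90.3, 108 and 116 TPM in the homozygous retinas. *Kcnj3* and *Kcnj6* averaged 16.8 and 15.1 TPM. *Kcnj5* measured 13.4, 12.7 and 13.7 TPM in the +/+ retinas, 13.7, 16.5 and 15.6 TPM in the heterozygous and 9.14, 13.1 and 11.8 TPM in the homozygous retinas, and its heterozygous and homozygous values did not overlap.

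Other inward rectifiers were low in the whole retina. *Kcnj2*, a classical strong rectifier, averaged 7.40 TPM, *Kcnj11*, the pore of ATP-sensitive channels, 8.58 TPM, and *Kcnj8*, the ATP-sensitive channel of pericytes, 2.69 TPM. A list of 5 pericyte and smooth muscle genes summed to 60.2 to 77.3 TPM in the +/+, 66.7 to 70.8 TPM in the heterozygous and 55.5 to 66.8 TPM in the homozygous retinas, with 2 of the 5 below 1 TPM, and the part of those cells in the values of *Kcnj8* was not tested. *Kcnj13*, the gene of Kir7.1 in the apical membrane of the retinal pigment epithelium, measured 1.202, 1.67 and 0.629 TPM in the +/+ retinas, 2.68, 1.45 and 1.23 TPM in the heterozygous and 2.43, 2.02 and 1.19 TPM in the homozygous retinas, and the 3 genotypes overlapped. Only *Kcns3* varied more between libraries of 1 genotype among the 64 members tested (CV 40.6% for *Kcnj13* and 45.8% for *Kcns3*). The 6 pigment epithelium genes summed to 17.5 to 49.2 TPM in the +/+, 35.9 to 91.3 TPM in the heterozygous and 26.1 to 51.3 TPM in the homozygous retinas, with *Best1* at a mean of 0.631 TPM, and the part of that tissue in the values of *Kcnj13* was not tested. *Kcnj13* also lies within *Gigyf2*, a gene of 104 TPM on the opposite strand. The libraries were strand-specific, but whether the counting used strand is not given in the sources used here, so the values of *Kcnj13* are uncertain.

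Two-pore channels carry the leak current of resting cells, and the smallest share of their members was tested, 6 of 14. *Kcnk1* had means of 44.5 ± 1.13, 40.5 ± 3.04 and 41.8 ± 2.51 TPM (SD, n = 3) and *Kcnk3* of 27.0 ± 0.318, 23.9 ± 2.77 and 23.4 ± 3.77 TPM in +/+, heterozygous and homozygous retinas. Both were lower in every heterozygous than in every +/+ retina. The summed level of the 14 members was 99.3 ± 1.57 TPM in the +/+, 89.3 ± 5.22 TPM in the heterozygous and 90.7 ± 8.43 TPM in the homozygous retinas.

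Among the channels gated by calcium, sodium or pH, *Kcnma1*, the pore of the large-conductance calcium-activated channel, was the highest, at 66.1, 55.0 and 59.6 TPM in the +/+ retinas, 58.8, 69.4 and 74.6 TPM in the heterozygous and 53.5, 51.2 and 75.9 TPM in the homozygous retinas. Its genotypes overlapped, and its CV within genotypes was the largest of the 40 members at 10 TPM or more, at 15.5%. The small-conductance channel genes *Kcnn2* and *Kcnn1* averaged 17.1 and 13.4 TPM. *Kcnn1* measured 16.7, 12.5 and 16.0 TPM in the +/+ retinas, 11.6, 12.4 and 12.4 TPM in the heterozygous and 13.0, 11.5 and 14.2 TPM in the homozygous retinas, and the highest heterozygous value was just below the lowest +/+ value. The sodium-activated *Kcnt1* averaged 20.4 TPM, and *Kcnu1*, known as a sperm channel, 1.67 TPM.

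The auxiliary subunits held 21.4% of the family's summed TPM in 17 members, of which 12 were tested. *Kcnab2*, a cytoplasmic beta subunit of Kv1 channels, measured 294, 279 and 287 TPM in the +/+ retinas, 273, 285 and 277 TPM in the heterozygous and 240.1, 267 and 285 TPM in the homozygous retinas. It shares 844 bases with *Nphp4* (20.7 TPM) on the opposite strand, with the same uncertainty for reads of that stretch. *Kcnab3* and *Kcnab1* averaged 57.5 and 50.8 TPM.

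The calcium-binding Kv channel-interacting proteins modulate Kv4 channels, and all 4 genes were tested. *Kcnip4* was the highest at 63.98, 57.9 and 63.9 TPM in the +/+ retinas, 67.4, 66.2 and 65.1 TPM in the heterozygous and 51.4, 62.8 and 57.3 TPM in the homozygous retinas, while *Kcnip3*, *Kcnip1* and *Kcnip2* averaged 52.5, 43.4 and 20.0 TPM. The heterozygous values of *Kcnip4* lay above all others. The single-span subunit *Kcne2* (chr16:92292389-92298133, plus strand) measured 109.9, 118 and 86.8 TPM in the +/+ retinas, 112, 113 and 116 TPM in the heterozygous and 71.7, 95.7 and 108 TPM in the homozygous retinas, while its neighbour *Kcne1* averaged 0.0143 TPM. *Kcnmb4*, the neuronal beta subunit of the *Kcnma1* channel, averaged 30.2 TPM, and *Kcnrg*, a soluble protein described as a regulator of Kv1 assembly, 2.25 TPM.

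**Figure D2:**
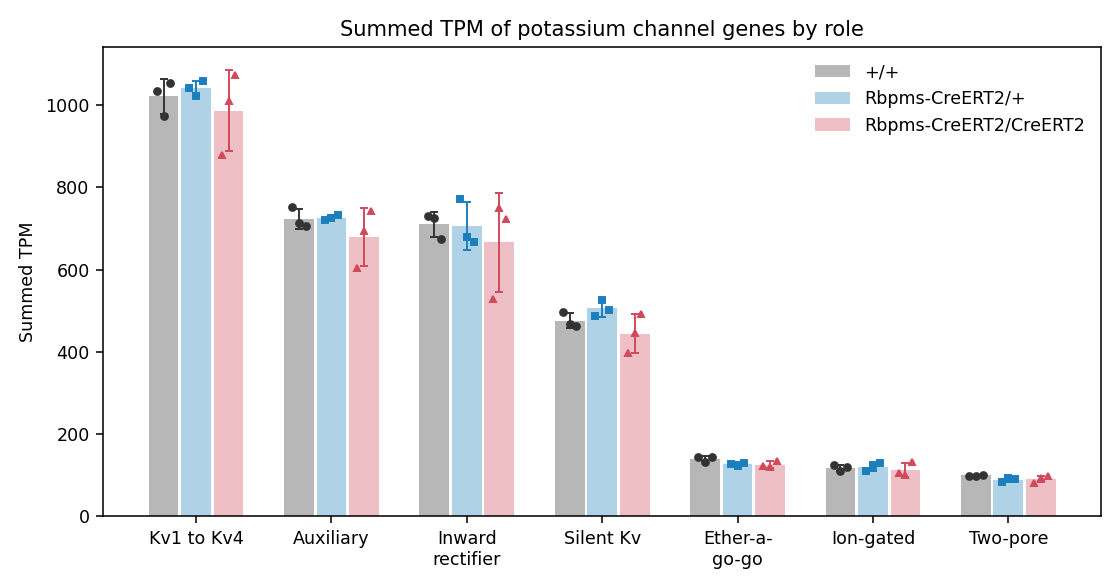
Summed TPM of the members of 7 classes by genotype; bars are means, error bars the SD and points the 3 libraries. The Kv1 to Kv4 sum averages 1016 TPM and the two-pore sum 93.1 TPM, the lowest point of the 4 tallest classes is homozygous replicate 1 in each case, and the genotypes overlap in these 4 classes.

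Whether the knock-in allele altered these levels was asked first in the heterozygous retinas against +/+. The test was limma on log2(TPM + 1), on which scale all fold changes are given, and the change of low genes is understated there. None of the 64 members passed an adjusted p of 0.05, which 0.00658% of all genes tested did, and the smallest limma adjusted p of a member was 0.436. At an unadjusted p under 0.05, 3 of 64 members (4.69%) were found against 10.7% of all genes. *Kcnq1ot1* was higher (log2 fold change 0.37, 95% interval 0.01 to 0.72, limma adjusted p = 0.452), 1 member against 4.9% of all genes in this direction. *Kcnh6* (-0.18, -0.35 to -0.01, limma adjusted p = 0.436) and *Kcnn1* (-0.28, -0.55 to -0.02, limma adjusted p = 0.444) were lower, 2 members against 5.82% of all genes. These counts moved with single libraries, as did those of all genes. None was higher without +/+ replicate 2 or 3 or any 1 heterozygous library (2.27% to 4.34% of all genes), 3 were higher without +/+ replicate 1 (6.51%), none was lower without heterozygous replicate 1 or 2 (5.03% and 4.13%), and 1 was lower without +/+ replicate 3 (2.88%) or heterozygous replicate 3 (4.32%). Without homozygous replicate 1, which enters the estimate of the spread, 2 were higher (8.82% of all genes) and 4 were lower (7.54%). With *Xist* in the model *Kcnh6* was at -0.18 and *Kcnq1ot1* at 0.32, both with an unadjusted p above 0.05.

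Libraries without overlap were counted as a description. In 6 members all heterozygous values were above all +/+ values, against 11.9% of all genes, and in 9 members they were below, against 10.3%. The 6 were *Kcnip4*, *Kcna4*, *Kcnb2*, *Kcnj2*, *Kcnq1ot1* and *Kcng2*, and among the 9 were *Kcnk1*, *Kcnk3*, *Kcnk9*, *Kcnh6*, *Kcnmb4*, *Kcnmb2*, *Kcnc4* and *Kcnn1*. The median log2 fold change of the 64 members was 0.01 and that of all genes 0.0014, and 29 members (45.3%) were below 0 against 49.6% of all genes. With FPKM, which left 55 members to test, 32 (58.2%) were below 0 against 55.9%.

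In the homozygous retinas against +/+, again none of the 64 members passed an adjusted p of 0.05, which 0.00658% of all genes did, and the smallest limma adjusted p of a member was 0.542. At an unadjusted p under 0.05, 4 members (6.25%) were found against 6.97% of all genes. All 4 were lower, against 5.39% of all genes, and none was higher, against 1.58%. Among them were *Kcng4* (log2 fold change -0.38, 95% interval -0.67 to -0.09, limma adjusted p = 0.634), *Kcnh6* (-0.28, -0.45 to -0.11, limma adjusted p = 0.542) and *Kcna5* (-0.21, -0.38 to -0.03, limma adjusted p = 0.655). In 6 members all homozygous values were below all +/+ values, these 4 with *Kcnn2* and *Kcnk2*, against 8.05% of all genes, and in 2 members, *Kcnh1* and *Kcns2*, they were above, against 2.7%.

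Without homozygous replicate 1, *Kcnh6* was the 1 member left lower at an unadjusted p under 0.05 (log2 fold change -0.27, limma adjusted p = 0.400), against 3.58% of all genes. *Kcng4* was then at -0.21 and *Kcna5* at -0.17. Without homozygous replicate 3 instead, 12 members were lower at an unadjusted p under 0.05, against 6.56% of all genes. With *Xist* in the model *Kcng4* was at -0.20 and no longer at an unadjusted p under 0.05, while *Kcnh6* at -0.28 and *Kcna5* at -0.26 were. Without homozygous replicate 1, 6 members lay below all +/+ values (9.81% of all genes) and 3 above them (15.9%). Beside *Kcng4* stand the values of 8 ganglion cell genes (*Pou4f1*, *Pou4f2*, *Thy1*, *Rbpms2*, *Nefl*, *Nefm*, *Sncg* and *Slc17a6*), which summed to 1539.6 to 1623 TPM in the +/+, 1473 to 1532 TPM in the heterozygous and 1133 to 1374 TPM in the homozygous retinas. All 8 were lower in homozygous than in +/+ retinas (57.7% of all genes), 6 of them at an unadjusted p under 0.05 (5.39%). Without homozygous replicate 1 all 8 were lower (43.8% of all genes), 5 of them at that p (3.58%). With all 9 libraries, all 4 rod, 4 bipolar, 4 amacrine, 3 horizontal and 4 Müller glia genes and 3 of 4 cone genes were lower too. At that p were 2 bipolar, 1 cone and 1 horizontal gene. Of the tested genes of other cells and tissues, 3 of 3 for pericytes and smooth muscle and 3 of 4 for microglia were lower. For pigment epithelium it was 0 of 5, for lens 1 of 5 and for blood 2 of 5. The part of ganglion cells in the values of the channel genes was not tested.

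The members as a whole lay slightly low in the homozygous retinas, as did all genes. Their median log2 fold change was -0.07 against -0.02 for all genes, and 48 of 64 members (75.0%) were below 0 against 57.7% of all genes. This split depended on the scale and on homozygous replicate 1. With median-ratio scaling 40 members (62.5%) were below 0 against 49.0% of all genes, and without homozygous replicate 1 there were 32 (50.0%) against 43.8%, with medians of 0.0004 and 0.02. With FPKM the share was 89.1% of 55 members against 75.0% of all genes.

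**Figure D3:**
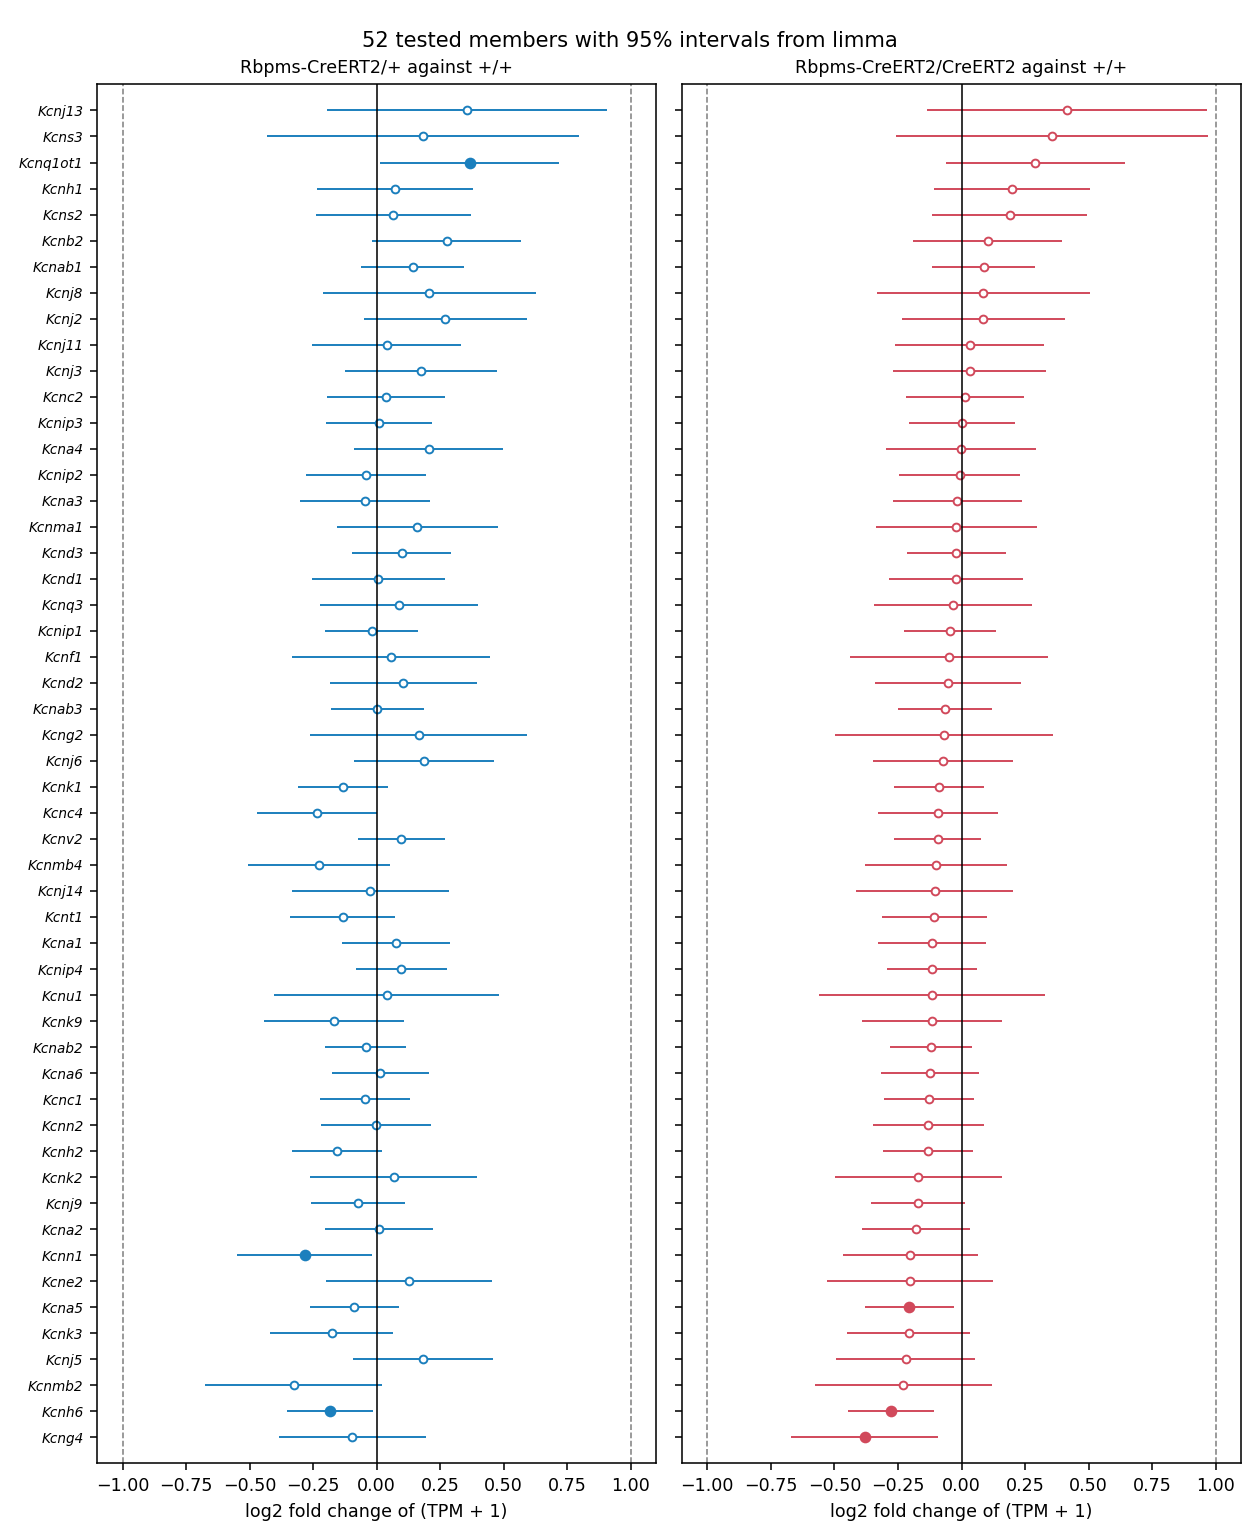
Log2 fold change of TPM + 1 with its 95% interval from limma for the 52 tested members that the text names, heterozygous (left) and homozygous (right) against +/+, in the order of the homozygous values; filled points have an unadjusted p under 0.05 and dashed lines mark a 2-fold change. Every interval lies inside the dashed lines, and 3 points are filled on each side.

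Homozygous retinas were also set against heterozygous ones. None of the 64 members passed an adjusted p of 0.05, which 0.0132% of all genes did, and the smallest limma adjusted p was 0.673. The 4 members lower at an unadjusted p under 0.05, against 4.2% of all genes in this direction and 6.58% in either direction, were *Kcnj5* (log2 fold change -0.40, 95% interval -0.68 to -0.13, limma adjusted p = 0.673), *Kcne2* (-0.33, -0.65 to -0.0022, limma adjusted p = 0.740), *Kcnip4* (-0.21, -0.39 to -0.04, limma adjusted p = 0.740) and *Kcnv2* (-0.19, -0.36 to -0.02, limma adjusted p = 0.740). None was higher at that p, against 2.38% of all genes. Without homozygous replicate 1 the values were -0.27 for *Kcnj5*, which kept an unadjusted p under 0.05, -0.16 for *Kcne2*, -0.14 for *Kcnip4* and -0.12 for *Kcnv2*, which did not. Without homozygous replicate 3 instead, 11 members were lower at an unadjusted p under 0.05, against 9.99% of all genes.

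Homozygous values lay below all heterozygous values in 6 members, *Kcne2*, *Kcnip4*, *Kcnh6*, *Kcnj5*, *Kcnk2* and *Kcng2*, against 7.23% of all genes, and above them in 1 member, *Kcns2*, against 4.76%. When homozygous replicate 1 was left out there were 7 members below (8.50% of all genes) and 6 above (13.4%). The median was -0.07 for the members and -0.03 for all genes. In this comparison 44 members (68.8%) were below 0 against 59.2% of all genes. With median-ratio scaling the members below 0 were 36 (56.25%) against 49.2%, and without homozygous replicate 1 they were 31 (48.4%) against 44.0%, with medians of 0.0009 and 0.02.

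**Figure D4:**
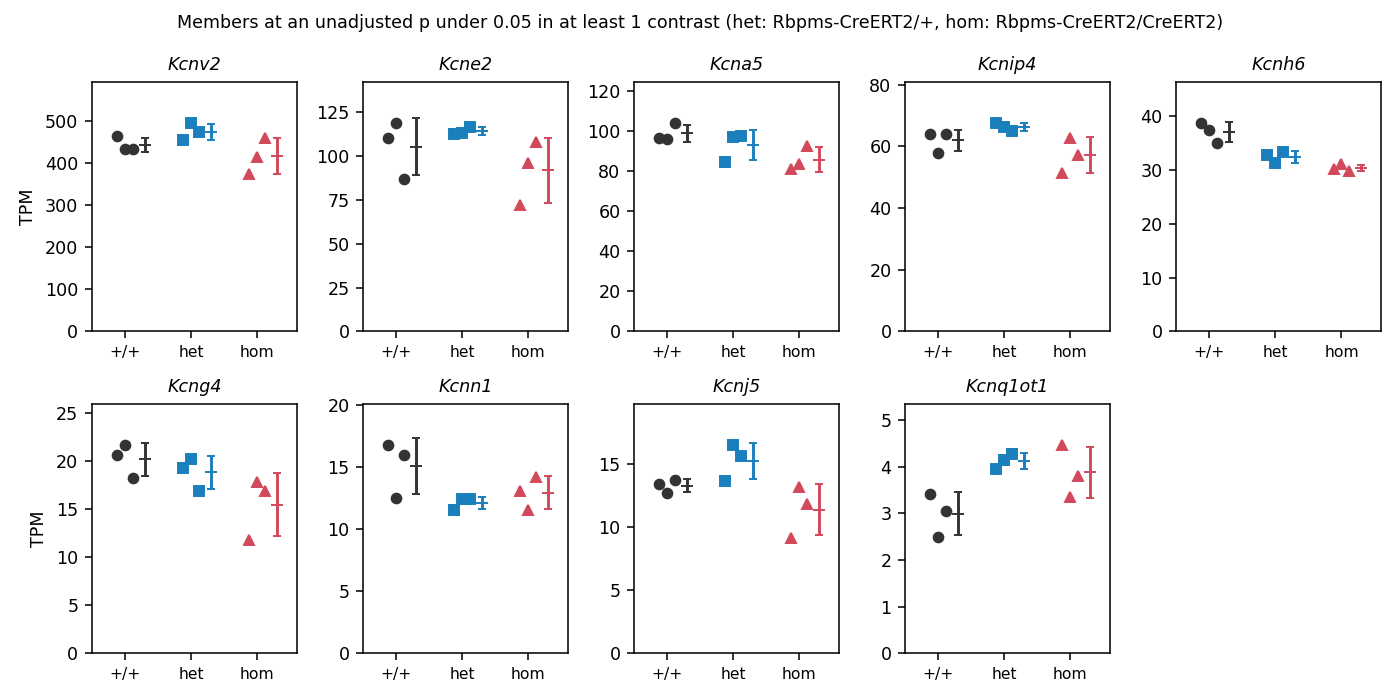
TPM per library of 9 members with an unadjusted p under 0.05 in at least 1 of the 3 comparisons; points are libraries and the bars beside them the mean and SD of 3 libraries, with axes from 0. The *Kcnh6* libraries lie at 29.8 to 31.0 TPM in homozygous and 31.2 to 33.3 TPM in heterozygous retinas, below all +/+ libraries, while in each of the other 8 panels 1 or 2 homozygous libraries lie within the range of another genotype.

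The 3 comparisons share libraries, so their values stand side by side and are not independent. *Kcnj5*, for example, was at 0.18 in heterozygous and -0.22 in homozygous retinas against +/+, and *Kcnip4* at 0.10 and -0.12, so that the lower values of both in homozygous against heterozygous retinas came from each side of +/+. For *Kcnh6* the heterozygous (-0.18) and the homozygous value (-0.28) had 1 direction, and they differed by -0.09 (95% interval -0.26 to 0.08).

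A p above the threshold does not show that levels were equal, and the intervals give the bounds. On the log2(TPM + 1) scale the 95% interval of all 64 members lay inside a 2-fold change in each of the 3 comparisons. This scale narrows the intervals of low members, so they do not bound the fold change of TPM itself. With a pseudocount of 0.1 in place of 1, 62 of 64 members lay inside in each comparison, and the exceptions *Kcnj13*, *Kcns3* and *Kcng2* had means of at most 1.61 TPM. In homozygous against +/+ retinas, *Kcns3* also lay outside on the scale used when homozygous replicate 1 was left out. With the pseudocount of 1, the interval lay inside a 1.5-fold change for 56 members in heterozygous against +/+ retinas, 59 in homozygous against +/+ and 57 in homozygous against heterozygous retinas, and with 0.1 for 48, 50 and 49. The fitted values themselves ran from -0.33 to 0.37, from -0.38 to 0.41 and from -0.40 to 0.18 on the log2 scale, with a median standard error of 0.13. For homozygous against +/+ retinas the 95% interval was -0.27 to 0.08 for *Kcnv2* and -0.41 to 0.20 for *Kcnj14*. The spread between libraries of 1 genotype was close to that of other genes, with a median CV of 8.48% in the 40 members at 10 TPM or more against 7.93% in all 10867 such genes.

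Genes of proteins that assemble with these channels were listed as well. The list of 12 partners held *Dpp6* and *Dpp10* for Kv4, *Amigo1* for Kv2, *Abcc8* and *Abcc9* for ATP-sensitive channels, *Lrrc26*, *Lrrc38*, *Lrrc52* and *Lrrc55* for the *Kcnma1* channel, and *Cntnap2*, *Cntn2* and *Adam22*, which gather Kv1 channels along axons. *Dpp6* was the highest at a mean of 90.4 TPM, followed by *Cntnap2* at 73.0 TPM, *Adam22* at 40.2 TPM and *Amigo1* at 37.5 TPM. All but *Lrrc52* (0.113 TPM) were tested, and 0 of the 11 passed an adjusted or an unadjusted p of 0.05 by limma in any of the 3 comparisons, where 10.7%, 6.97% and 6.58% of all genes had such an unadjusted p. Their log2 fold changes ran from -0.11 to 0.13 in heterozygous from -0.13 to 0.20 in homozygous retinas against +/+ and from -0.21 to 0.31 in homozygous against heterozygous retinas, and the smallest limma adjusted p values were 0.685, 0.882 and 0.740. Without homozygous replicate 1 the last 2 ranges were -0.10 to 0.15 and -0.13 to 0.26, also with 0 at an unadjusted p under 0.05.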

How the data were processed

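Total RNA of whole retinas was made into strand-specific poly(A) libraries and sequenced as paired reads of 150 bases. Per the labels and the study's methods, the authors used Trimmomatic, HISAT2 with mm10, SAMtools and StringTie. Tool versions, annotation and strand setting are not given in the sources used here. The deposited tables of 9 libraries give the authors' coverage, FPKM and TPM per gene. TPM was analysed, summed by gene name. FPKM served as an alternative, and the deposited coverage gave the aligned bases. The tables hold no counts, so the authors' DESeq2 test was not repeated. Depth limits per gene were not worked out from the coverage.

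Genes whose TPM averaged 1 or more entered limma 3.58.1 in R 4.3.3 (log2(TPM + 1), trend and robust prior, genotype as the term, 9 libraries, 6 residual degrees of freedom), with Benjamini-Hochberg adjustment over all 15198 genes. Unadjusted p-values select members for description. The labels number replicates without naming animals. Sequences come from GENCODE M21, and gene positions from the deposited tables.

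The members and all gene lists were chosen with earlier results of these data known. Named members were the 15 highest, the highest of each name group, up to 8 per comparison with an unadjusted p under 0.05, and 17 known from the retina, some of which are not reported here. *Kcna2*, *Kcna3*, *Kcna4*, *Kcna6*, *Kcna10*, *Kcnc4*, *Kcnd1*, *Kcne1*, *Kcng2*, *Kcnh1*, *Kcnip1*, *Kcnj3*, *Kcnj6*, *Kcnj11*, *Kcnab1*, *Kcnk2*, *Kcnk3*, *Kcnk9*, *Kcnk16*, *Kcnmb2*, *Kcnn3*, *Kcnq1*, *Kcnq3* and *Kcns3* fall outside this rule and were chosen after their values were seen. Alternatives were a pseudocount of 0.1, no filter, the replicate number as a block, median-ratio scaling, FPKM, *Xist* as covariate, only the genotypes compared, no robust prior and each library left out. Median-ratio scaling without homozygous replicate 1 was added after seeing the data.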

Additional observations from a re-analysis of the deposited data

How the results depend on the processing

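The count of members past an adjusted p of 0.05 stayed at 0 in all 3 comparisons under every alternative run. Leaving out 1 library moved the members' median log2 fold change over -0.02 to 0.02 in heterozygous against +/+, -0.13 to 0.0004 in homozygous against +/+ and -0.10 to 0.0009 in homozygous against heterozygous retinas. The values of 0.0004 and 0.0009 came without homozygous replicate 1, where the median of all genes was 0.02 in both comparisons. With median-ratio scaling as well, a setting added after seeing the data, 57.8% of the members were below 0 in both, against 49.7% and 50.4% of all genes. Counts at an unadjusted p under 0.05 moved too, and are given with the share of all genes. In heterozygous against +/+ retinas, where 1 member was higher and 2 were lower, they became 2 and 4 with median-ratio scaling (8.06% and 7.82% of all genes) and with only the genotypes compared (9.07% and 7.79%), while FPKM gave 0 higher (2.28%) and no filter gave 4 lower (5.15%). Median-ratio scaling without homozygous replicate 1, chosen after seeing the data, gave 2 higher (8.51%) and 5 lower (8.22%). In homozygous against +/+ retinas, 4 members were lower and FPKM gave 7 (7.94%). In homozygous against heterozygous retinas, with 4 lower and 0 higher, the added setting gave 2 (2.40%) and 1 (2.56%). Leaving out 1 library at a time gave 0 to 3 higher and 0 to 4 lower in heterozygous against +/+ retinas, 0 to 1 higher and 1 to 12 lower in homozygous against +/+, and 0 to 1 higher and 1 to 11 lower in homozygous against heterozygous retinas. The lowest of the last counts came without homozygous replicate 1 and the highest (12 and 11) without homozygous replicate 3. In heterozygous against +/+ retinas, 3 members were higher without +/+ replicate 1, 2 without homozygous replicate 1 and 0 without +/+ replicate 2 or 3 or any heterozygous library, while 4 were lower without homozygous replicate 1, 1 without +/+ replicate 3 or heterozygous replicate 3 and 0 without heterozygous replicate 1 or 2. The cause was not tested. *Kcnh6* in homozygous against +/+ retinas kept its direction and an unadjusted p under 0.05 in every alternative. Of 1983 values of the named members under an alternative, 1876 kept their direction and 107 did not, of which none had an unadjusted p under 0.05 in the reported fit, while 47 lost such a p and 30 gained it. No clear pairing of the libraries by replicate number was seen, although 3 libraries per genotype cannot exclude it. Same-numbered libraries had correlations of -0.116 to 0.128 with 1 of 9 over 0.1, and 3 of 9 libraries correlated best with their own number. With the replicate number as a block, 1 member was higher and 3 were lower in heterozygous against +/+, 0 and 4 in homozygous against +/+, and 0 and 3 in homozygous against heterozygous retinas. Read numbers per gene were not worked out from the deposited coverage, so the counting error that limits members near 1 TPM is not given here.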

Other observations

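Of the names left out of the family, *Kcnj10*, the inward rectifier of Müller glia, was at 46.3, 40.7 and 39.2 TPM in the +/+ retinas, 42.1, 44.1 and 45.7 TPM in the heterozygous and 34.5, 39.4 and 45.3 TPM in the homozygous retinas, and its genotypes overlapped. The antisense genes *Kcnd3os*, *Kcnmb4os2* and *Kcnmb4os1* averaged 1.89, 3.29 and 0.693 TPM. Their partners *Kcnd3* and *Kcnmb4* on the opposite strand averaged 46.9 and 30.2 TPM.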
